A study of Mus musculus with 6 samples.

Results

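The expression of 9 chemokine genes was examined in whole retinas 2 days after optic nerve crush (ONC), an injury to the axons of the retinal ganglion cells, or after a sham operation. The genes were taken by their symbols and are 9 of the 35485 genes in the files. They comprise the ligands Ccl2, Ccl3, Ccl4, Ccl12, Cxcl10, Cxcl12, Cxcl16 and Cx3cl1 and the receptor Cxcr4. Both groups consisted of wild-type male C57BL/6 mice, 12 weeks of age. In the ONC group, which the labels call NC, the nerve was crushed behind the eye, and in the sham group it was exposed without a crush. Each group had 3 libraries, and each library was a pool of 6 retinas from different mice, so the spread between replicates was a spread between pools.

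Chemokines are small secreted proteins that steer the movement of leukocytes by binding G protein-coupled receptors. Their families are named for the spacing of the first cysteines of the mature protein, which are adjacent in CC chemokines, separated by a single residue in CXC chemokines and further apart in the CX3C chemokine Cx3cl1 (fractalkine). In the retina, Cx3cl1 is made mainly by neurons, and its receptor Cx3cr1 marks microglia, whereas inflammatory ligands such as Ccl2, Ccl3, Ccl4 and Cxcl10 are typically induced in glia, microglia and infiltrating myeloid cells.

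The cysteine motif that sorts the ligands into these families is given for 7 of them as 30 bases of the coding sequence from GENCODE vM1, read 5′ to 3′, with the first cysteine codons in capitals. In all 7 genes the stretch began and ended within exon 2 of the coding transcript used.
Ccl2: ccactcaccTGCTGCtactcattcaccagc
Ccl4: cccacttccTGCTGTttctcttacacctcc
Ccl12: ccagtcacgTGCTGTtataatgttgttaag
Cxcl10: acggtccgcTGCaacTGCatccatatcgat
Cxcl12: agctaccgaTGCcccTGCcggttcttcgag
Cxcl16: gctggaagtTGTtctTGTgatcgtaccatt
Cx3cl1: atgacgaaaTGCgaaatcatgTGCgacaag
The cysteine codons had 0 codons between them in the 3 CC ligands shown, 1 in the 3 CXC ligands and 3 in Cx3cl1. The coding sequences of Ccl2 and Ccl12 were 67.9% identical over 312 aligned bases. By this measure, which counts aligned bases only, the pairs of the 7 ligands ranged from 56% (Ccl4 and Cxcl12) to 67.9%. A pair from different families, Ccl2 and Cxcl10, reached 65.6%, and the CXC pair Cxcl10 and Cxcl12 only 58.8%. The measure thus separated the families poorly and does not show which ligands are related. Every exon read counted on the 4 CC ligands was uniquely mapped (100%).

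The 4 CC ligands lie in a single stretch of chromosome 11, from 82035577 to 83664683 in the coordinates of the files, which match GRCm38. Ccl2 (82035577 to 82037452) and Ccl12 (82101845 to 82103399) were separated by 64392 bases, and Ccl3 (83647843 to 83649378) and Ccl4 (83662584 to 83664683) by 13205 bases. Cxcl16 lies elsewhere on chromosome 11 (70454234 to 70459984), Cx3cl1 on chromosome 8 (94772180 to 94782427), Cxcl12 on chromosome 6 (117168535 to 117181368), Cxcl10 on chromosome 5 (92346638 to 92348889) and Cxcr4 on chromosome 1 (128588199 to 128592299). Because the libraries carried no strand information, reads from genes that overlap could not be separated. Of the 9 genes this applied to Cxcl16, which overlaps Zmynd15 (15 to 37 exon reads per library), and to Cxcl10, which overlaps Art3 (4 to 20 exon reads per library).

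The libraries held 17343945 to 18349331 exon reads in the sham group and 20019818 to 20358008 in the ONC group, an intact read pair counting as 1 read. The photoreceptor markers Gnat1, Pde6b and Arr3, which define retinal tissue, together held 19432 to 20831 CPM (exon reads relative to the TMM-normalized exon total of a library) in sham and 19286 to 21467 CPM in ONC. A gene was tested when its mean RPKM (exon reads scaled to the exon length of the gene and to all reads on genes) was above 0.3 in at least one group, which 13670 genes passed. A call required an adjusted p below 0.1 by the quasi-likelihood test of edgeR, and intervals of a fold change are 95% intervals from that test. By this rule, 7 of 8 markers of retinal ganglion cells were called lower in ONC, against 3.72% of all genes, and 1 (Slc17a6) higher. In whole-retina RNA, fewer cells of a type and less RNA per cell cannot be told apart.

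None of the 9 chemokine genes was called changed 2 days after ONC. Cx3cl1, Cxcl16 and Cxcl12 were well measured, and the intervals of their differences excluded a 1.5-fold change in either direction. Ccl2, Ccl4, Ccl12 and Cxcl10 had too few reads, with means under 10 exon reads per library in both groups, and Ccl3 and Cxcr4 averaged 12.7 and 20 exon reads per ONC library. Of the 9 genes, 7 could be tested and 0 were called, against 6.09% of all tested genes, or 1.66% when a change above 1.5-fold was also required. At an unadjusted p under 0.05, edgeR and the DESeq2 Wald test each gave 1 of the 7 (Cx3cl1), against 16.7% of all genes by edgeR. Without the filter all 9 could be fitted and 0 were called, against 6.66% of 17655 genes. The median log2 fold change was 0.11 for the 7 tested genes and 0.01 for all tested genes, but Ccl3, Ccl4 and Cxcr4 passed the filter only through their ONC values, so the former carries no weight.

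**Figure D1:**
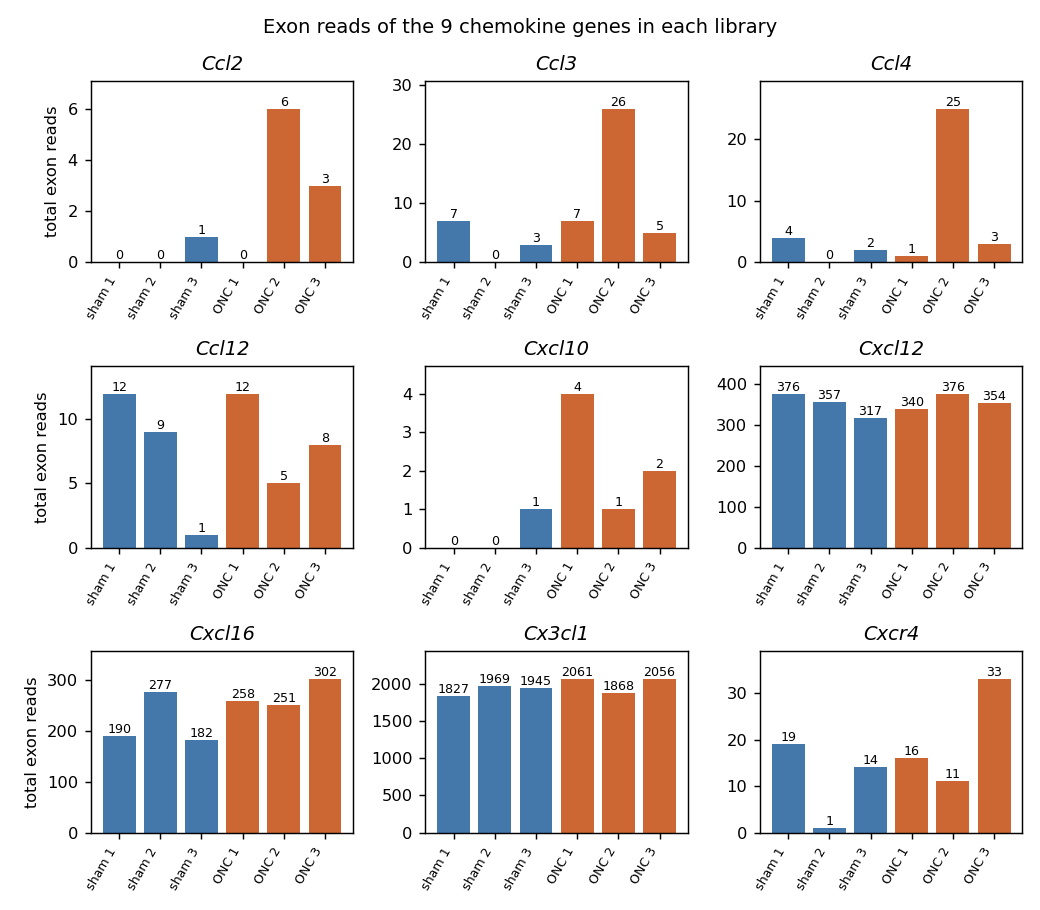
Total exon reads (vertical axis, a separate scale for each gene) of the 9 chemokine genes in the 3 sham (blue) and 3 ONC (orange) libraries, with the read count above each bar. Cx3cl1 had 1827 to 2061 reads in every library, whereas Ccl3 and Ccl4 had at most 7 reads outside ONC replicate 2, where they had 26 and 25.

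Cx3cl1 was by far the most abundant of the 9 transcripts. On the RPKM scale it reached 25.6 ± 0.501 (SD, n = 3) in sham and 25 ± 1.03 (SD, n = 3) in ONC retinas, above 84.9% and 82.7% of the tested genes, respectively. Its reads made up 72.7% to 78.9% of the reads on the 9 genes in a library. Cxcl16 followed at 3.71 ± 0.891 RPKM in sham and 4.35 ± 0.355 in ONC (SD, n = 3), so that Cx3cl1 exceeded it 6.89-fold and 5.75-fold. Cxcl12 was next at 2.06 ± 0.238 RPKM in sham and 1.96 ± 0.127 in ONC (SD, n = 3). These 3 ligands did not overlap one another or the next gene in either group.

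The remaining 6 genes were all below a mean of 1 RPKM, and each overlapped its neighbour in the order of levels. In sham retinas the order was Ccl12 (0.584 ± 0.46), Cxcr4 (0.265 ± 0.221), Ccl3 (0.18 ± 0.194), Ccl4 (0.129 ± 0.132), Ccl2 (0.017 ± 0.0294) and Cxcl10 (0.0123 ± 0.0214), in RPKM (SD, n = 3). In ONC retinas Ccl3 (0.639 ± 0.594), Ccl12 (0.612 ± 0.257), Ccl4 (0.586 ± 0.813) and Cxcr4 (0.431 ± 0.239) were within their spread of one another, and Ccl2 (0.147 ± 0.15) and Cxcl10 (0.0833 ± 0.0552) were last. The plot of levels shows these gaps for ligands and receptors on a single scale.

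**Figure D2:**
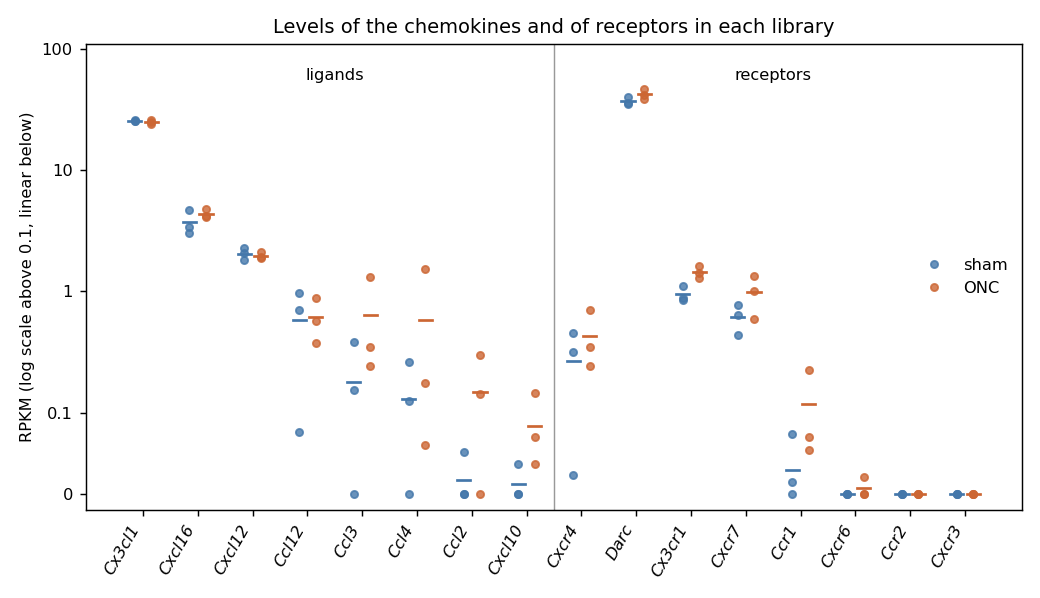
RPKM of each library (points) and group means (short lines) for the 8 ligands and for Cxcr4 and 7 other receptors, in sham (blue) and ONC (orange) retinas, on an axis that is logarithmic above 0.1 and linear below it. Cx3cl1 and the atypical receptor gene Darc stood above 20 RPKM, while Ccr2 and Cxcr3 had no reads in any library.

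Cx3cl1 is made as a membrane-bound adhesion molecule whose shed form attracts cells bearing Cx3cr1. It had 1827, 1969 and 1945 exon reads in sham replicates 1 to 3 and 2061, 1868 and 2056 in ONC replicates 1 to 3. In CPM these were 105, 108 and 114 in sham and 104, 91.2 and 98.8 in ONC, so that each ONC library lay below each sham library. Such a complete separation downwards was also found in 10.8% of all tested genes. The log2 fold change was -0.15 (SE 0.07), a 0.898-fold level with an interval of 0.813 to 0.992 (edgeR adjusted p = 0.256). The 1 fit that called Cx3cl1 lower left out ONC replicate 1 (log2 fold change -0.20, edgeR adjusted p = 0.0514), and the adjusted p reached 0.827 in the other alternatives. The fit without ONC replicate 1 called 15% of all its tested genes, against 6.09% in the main fit. In RPKM the groups overlapped, with 25.3, 26.1 and 25.3 in sham and 25.9, 23.9 and 25.2 in ONC.

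Cxcl12 (SDF-1), a constitutive ligand of Cxcr4 and of the scavenger receptor Cxcr7, had 376, 357 and 317 exon reads in sham and 340, 376 and 354 in ONC. The normalized values were 21.5, 19.6 and 18.6 CPM in sham and 17.1, 18.4 and 17 in ONC, again without overlap. All ONC libraries also lay below all sham libraries in 10.8% of all tested genes. The Cxcl12 difference did not pass the test, with a log2 fold change of -0.19 (SE 0.12) and a 0.878-fold level within an interval of 0.739 to 1.04 (edgeR adjusted p = 0.457). In RPKM the groups overlapped, with 2.28, 2.08 and 1.81 in sham and 1.88, 2.11 and 1.91 in ONC.

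Cxcl16, a transmembrane chemokine that binds Cxcr6, had 190, 277 and 182 exon reads in sham and 258, 251 and 302 in ONC. Sham replicate 2 lay above every ONC library in CPM (15.2 against 13, 12.3 and 14.5), and the groups overlapped. The log2 fold change was 0.11 (SE 0.16), or 1.08-fold with an interval of 0.86 to 1.36 (edgeR adjusted p = 0.778).

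For these 3 ligands the share of reads on exons gave another readout, because the files also count reads on introns. Exons held 99% ± 0.857 of the Cxcl12 reads in sham and 98.8% ± 1.24 in ONC (SD, n = 3; two-sided exact permutation test, p = 1). For Cxcl16 the share was 93.2% ± 5.02 in sham and 94.6% ± 2.86 in ONC (SD, n = 3; two-sided exact permutation test, p = 0.8). For Cx3cl1 it was 97.4% ± 0.795 and 97.7% ± 0.719 (SD, n = 3; two-sided exact permutation test, p = 0.7). With 3 libraries against 3, p cannot fall below 0.1, and no share differed beyond its spread. The other 6 genes had too few reads on the gene for this measure.

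The inflammatory CC ligands Ccl3 (MIP-1α) and Ccl4 (MIP-1β), which attract monocytes and T cells, had more reads in ONC than in sham in total, but most of these came from a single library. Ccl3 had 7, 0 and 3 exon reads in sham and 7, 26 and 5 in ONC. Ccl4 had 4, 0 and 2 in sham and 1, 25 and 3 in ONC. ONC replicate 2 thus held 68.4% of the ONC reads of Ccl3 and 86.2% of those of Ccl4, and the other ONC libraries lay within the sham range.

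The log2 fold change of Ccl3 was 1.67 (SE 0.92), or 3.18-fold with an interval of 0.841 to 12.1 (edgeR adjusted p = 0.375). That of Ccl4 was 1.99 (SE 1.14), or 3.97-fold with an interval of 0.755 to 20.9 (edgeR adjusted p = 0.401). Without sham replicate 1 these log2 fold changes were 2.76 and 2.91, and without sham replicate 2 they were 1.08 and 1.41. Without ONC replicate 2 neither gene passed the RPKM filter. The ratio of summed reads per exon reads sequenced, ONC over sham, then went from 3.27 to 1.56 for Ccl3 (counting interval 0.616 to 4.02) and from 4.16 to 0.864 for Ccl4 (counting interval 0.179 to 3.64). These intervals cover counting error only. In the same library the monocyte and neutrophil markers summed to the highest value, the sums ranging from 0.961 to 14.8 CPM in ONC and from 1.53 to 3.13 in sham. The highest sum rested mainly on Chi3l3, which gave 9.91 CPM of it and had 203 of its 209 ONC reads in this library. Of these 8 markers, 3 were tested and 1 (Chi3l3) was called higher, against 2.38% of all genes. Chi3l3 passed the RPKM filter only through ONC replicate 2 (5.3 RPKM, against a sham mean of 0.108), so this count carries no weight. S100a9 and S100a8 were also highest in this library (2.64 and 2.1 CPM, 1.49 and 1.6 times the next library). Their log2 fold changes between the groups were 0.51 and -0.30. Ly6c2, Plac8 and Ly6g were not highest there, and Mpo and Elane had no reads. The part of these markers in the Ccl3 and Ccl4 counts was not tested.

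Ccl12 (MCP-5) and Ccl2 (MCP-1) are monocyte attractants that act through Ccr2. Ccl12 had 12, 9 and 1 exon reads in sham and 12, 5 and 8 in ONC, with overlapping groups. Its log2 fold change of -0.02 (SE 0.78) had an interval from 0.32- to 3.04-fold (edgeR adjusted p = 0.991), so that a change within that interval was not detectable at this depth, and the direction turned in several alternative fits.

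Ccl2 had 0, 0 and 1 exon reads in sham and 0, 6 and 3 in ONC. A library without a read allows up to 3 reads, or 0.162 and 0.155 RPKM in sham replicates 1 and 2 and 0.147 RPKM in ONC replicate 1. The ratio of 9 ONC reads to 1 sham read, corrected for depth, was 7.76 with a counting interval of 1.07 to 340. Without ONC replicate 2, which held 6 of the 9, the ratio was 3.89 with an interval of 0.312 to 204. Ccl2 did not pass the RPKM filter, and in the edgeR fit without the filter its log2 fold change was 2.57 (SE 1.89, adjusted p = 0.576).

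Cxcl10 (IP-10), an interferon-induced ligand of Cxcr3, was likewise below the filter, with 0, 0 and 1 exon reads in sham and 4, 1 and 2 in ONC. The zero counts in sham replicates 1 and 2 allow up to 0.119 and 0.114 RPKM. The ratio of 7 ONC reads to 1 sham read, corrected for depth, was 6.03 with a counting interval of 0.775 to 272, and the edgeR fit without the filter gave a log2 fold change of 2.24 (SE 1.96, adjusted p = 0.659). Only 75% of its 8 reads were uniquely mapped.

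Cxcr4, the signalling receptor of Cxcl12, had 19, 1 and 14 exon reads in sham and 16, 11 and 33 in ONC. Its groups overlapped, and sham replicate 2 was the lowest of the 6 libraries while ONC replicate 3 was the highest. The log2 fold change was 0.58 (SE 0.68), or 1.5-fold with an interval of 0.557 to 4.03 (edgeR adjusted p = 0.718). It was 0.03 without sham replicate 2 and 1.16 without sham replicate 1.

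**Figure D3:**
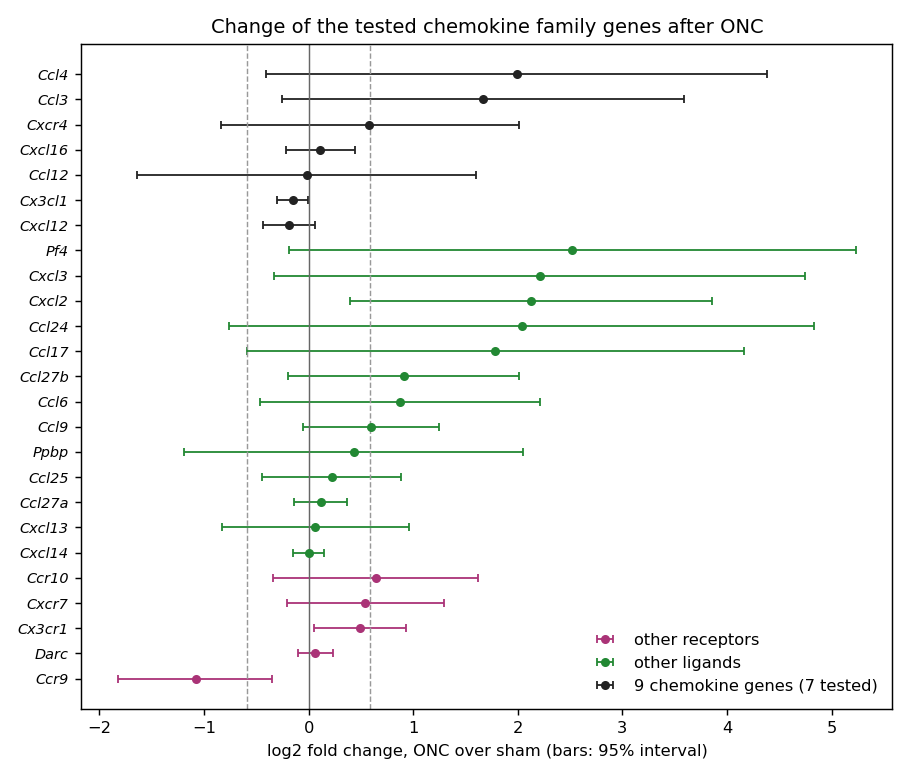
Log2 fold change of ONC over sham (points) with 95% intervals (bars) from edgeR for the 7 tested chemokine genes of the set (black), 13 other ligands (green) and 5 other receptors (purple), with dashed lines at a 1.5-fold change. The intervals of Cxcl12, Cxcl16 and Cx3cl1 lie between the dashed lines, and those of Ccl3, Ccl4, Ccl12 and Cxcr4 extend beyond them.

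Among the other chemokine ligands, the most abundant was Cxcl14, with 25.7 ± 2.03 RPKM in sham and 27.9 ± 0.275 in ONC (SD, n = 3), close to the level of Cx3cl1. Its log2 fold change was 0.00 (SE 0.07, edgeR adjusted p = 0.99). Ccl27a was next (11.6 ± 1.94 and 13.7 ± 1.59 RPKM, SD, n = 3; log2 fold change 0.12, SE 0.12), although only 67.9% of its reads were unique and it overlaps Il11ra1. The level of Ccl25 was 1.63 ± 0.267 RPKM in sham and 2.06 ± 0.0971 in ONC (SD, n = 3), with a log2 fold change of 0.22 (SE 0.32).

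Of 32 other ligands found in the files, 13 could be tested and 0 were called changed by edgeR, against 6.09% of all genes. At an unadjusted p under 0.05 there was 1, the neutrophil attractant Cxcl2, which passed the RPKM filter only through its ONC values. It had 18, 0 and 4 exon reads in sham and 39, 69 and 5 in ONC, and the groups overlapped (log2 fold change 2.13, SE 0.83, edgeR adjusted p = 0.186). Its log2 fold change ran from 1.37 without ONC replicate 2 to 3.94 without sham replicate 1, and it was called in 4 of 18 alternatives. Those fits called 3.32% to 12.7% of all their tested genes. DESeq2 also called 0. The 13 log2 fold changes had a median of 0.87, but a ligand near the RPKM limit could pass it through the group in which it was higher, so this median carries no weight. A further 6 ligands (Ccl1, Ccl8, Ccl20, Cxcl11, Cxcl15 and Xcl1) had no exon read in any library, of which Cxcl11 had an exon length of 0 in the files and could not collect any.

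In the stretch of chromosome 11 between Ccl2 and Ccl4 the files list 50 genes, of which 11 are CC ligands. Summed over these 11 ligands, the exon reads, not corrected for depth, were 97, 67 and 69 in sham and 102, 230 and 135 in ONC. Ccl9 and Ccl6 made up most of the sum in every library. Ccl9 had 66, 33 and 38 reads in sham and 70, 89 and 83 in ONC. Ccl6 had 8, 25 and 17 in sham and 5, 72 and 30 in ONC, and only 36.9% of its reads were uniquely mapped. ONC replicate 2 stood above the rest, and only 5 of the 11 passed the RPKM filter.

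The receptors that match these ligands differed widely in level. Cx3cr1, the microglial receptor of Cx3cl1, had 95, 76 and 81 exon reads in sham and 152, 133 and 126 in ONC, or 0.949 ± 0.139 and 1.45 ± 0.155 RPKM (SD, n = 3). All ONC libraries lay above all sham libraries, which was also so for 11% of all tested genes. The log2 fold change was 0.49 (SE 0.21), or 1.41-fold with an interval of 1.03 to 1.91, and it was not called (edgeR adjusted p = 0.24). When all reads on genes served as the divisor, as in RPKM, it was called (log2 fold change 0.61, edgeR adjusted p = 0.0908). With that divisor 12.7% of all tested genes were called, against 6.09% in the main fit.

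The summed level of 9 microglia and macrophage markers was higher in each ONC library than in each sham library. It was 28.2 to 34.8 CPM in sham and 43.2 to 47.9 in ONC, and 3 of the 9 (Itgam, Cd68 and C1qa) were called higher, against 2.38% of all genes. The others were not called. Their log2 fold changes were 0.96 (Tyrobp), 0.95 (P2ry12), 0.41 (Csf1r), 0.23 (Tmem119), 0.09 (Trem2) and -0.32 (Aif1). For Tyrobp and Csf1r all ONC libraries lay above all sham libraries, as in 11% of all tested genes. The part of these markers in the Cx3cr1 values was not tested.

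Cxcr7, the scavenger receptor of Cxcl12, had 38, 27 and 49 exon reads in sham and 39, 65 and 90 in ONC, with overlapping groups (log2 fold change 0.54, SE 0.36, edgeR adjusted p = 0.482). Ccr1, a receptor of Ccl3, was under the filter, with 0, 5 and 1 reads in sham and 5, 16 and 4 in ONC.

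Further receptors were at or near the limit of detection. Ccr2, the receptor of Ccl2 and Ccl12, and Cxcr3, the receptor of Cxcl10, had no exon read in any library, and Cxcr6, the receptor of Cxcl16, had 1 read in ONC replicate 3 and 0 in the others. That read was not uniquely mapped, and Cxcr6 overlaps Fyco1, which had 5443 to 7272 exon reads per library. Including Ccr2 and Cxcr3, 6 of the 22 other receptors had no read. Lymphocyte markers were also low. None of the 7 passed the filter, Cd3g had no read, and their sums ranged from 0.603 to 1.41 CPM in sham and from 0.385 to 1.01 in ONC.

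Of these 22 receptors, 5 were tested, and 1, Ccr9, was called, against 3.72% of all genes called lower. Ccr9, the receptor of Ccl25, had 50, 54 and 86 exon reads in sham and 44, 27 and 33 in ONC. For Ccr9 each ONC library lay below each sham library, as was also so for 10.8% of all tested genes. Its log2 fold change was -1.08 (SE 0.35), or 0.472-fold with an interval of 0.284 to 0.783 (edgeR adjusted p = 0.0965). The call was close to the threshold. With total gene reads the log2 fold change was only -0.44 (edgeR adjusted p = 0.0966). It was lost without sham replicate 2 (edgeR adjusted p = 0.152), sham replicate 3 (0.427), ONC replicate 2 (0.309) or ONC replicate 3 (0.258) and with the replicate number as a block (0.128), and the adjusted p ranged from 0.025 to 0.427 over the alternatives. Darc, an atypical receptor that binds chemokines without signalling, had the highest level of these receptors (37.2 ± 2.78 RPKM in sham and 42.4 ± 3.9 in ONC, SD, n = 3), with a log2 fold change of 0.06 (SE 0.08, edgeR adjusted p = 0.736).

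Adam10 and Adam17, the proteases that release Cx3cl1 and Cxcl16 from the cell surface, were not called changed. Adam10 had 1291, 1334 and 1298 exon reads in sham and 1675, 1362 and 1358 in ONC (log2 fold change -0.05, SE 0.09, edgeR adjusted p = 0.828). Adam17 had 413, 257 and 380 in sham and 400, 472 and 512 in ONC (log2 fold change 0.18, SE 0.15, edgeR adjusted p = 0.613).

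Of 13 regulators of chemokine transcription, which include NF-κB, interferon and STAT factors and inflammatory cytokines, 11 were tested and 2 were called higher, against 2.38% of all genes. Jun, a component of AP-1, had 751, 680 and 660 exon reads in sham and 1453, 1451 and 1572 in ONC, without overlap (log2 fold change 0.88, SE 0.08, edgeR adjusted p = 8.12e-07). Stat3, the transcription factor downstream of interleukin-6 family cytokines, had 1151, 1300 and 1011 in sham and 1595, 1594 and 1810 in ONC (log2 fold change 0.32, SE 0.08, edgeR adjusted p = 0.0258). The Stat3 call was lost without sham replicate 3 (edgeR adjusted p = 0.186) or ONC replicate 3 (0.173). The cytokine genes Tnf and Il6 were under the filter, with 8 and 4 reads in ONC replicate 2 and 0 in the other ONC libraries.

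The share of each gene held by each library was even for the chemokines with 1460 to 11726 reads and uneven for those with 8 to 94. Few reads give uneven shares by counting error too, so the difference in evenness cannot be read as a property of the genes. For Cx3cl1 the normalized reads were spread evenly, with 14.7% to 18.4% of the total in each library, and for Cxcl12 and Cxcl16 with 15.2% to 19.2% and 14% to 19.8%. For Ccl3 and Ccl4, ONC replicate 2 alone held 52% and 69.3%, and for Cxcl10 it was ONC replicate 1 that held the largest share, 49.7% of 8 reads.

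**Figure D4:**
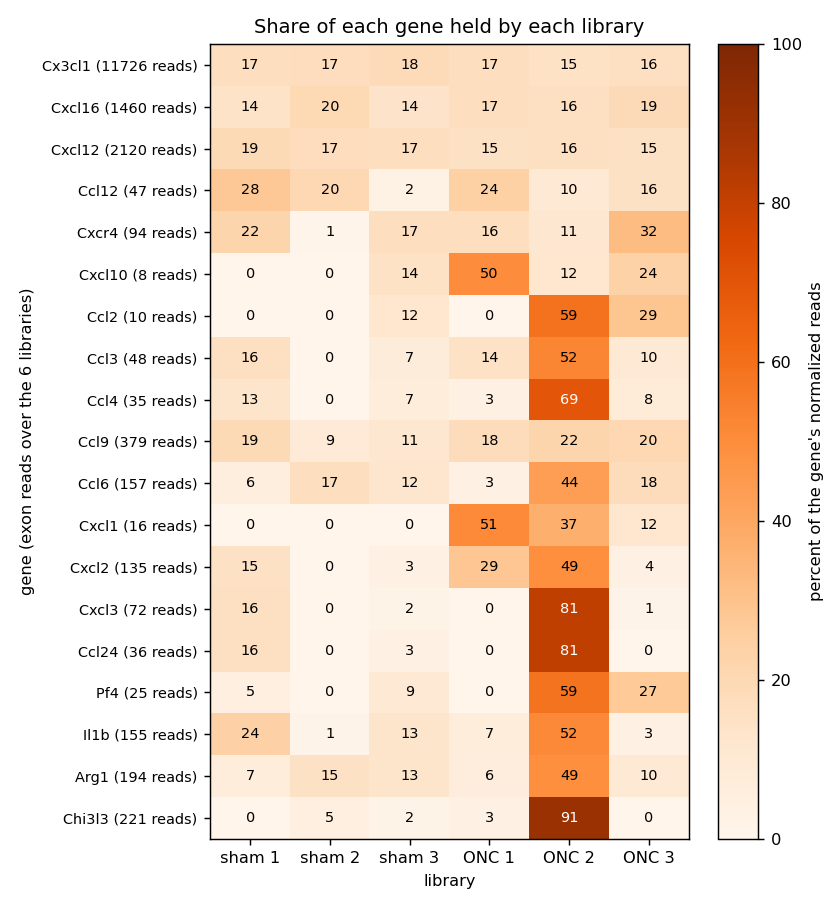
Percent of a gene's TMM-normalized exon reads held by each of the 6 libraries (cells, each row summing to 100%), for the 9 chemokine genes and for 10 other genes chosen after their values were seen, with the number of reads of each gene in parentheses. Rows of Cx3cl1, Cxcl16 and Cxcl12 are even, whereas ONC replicate 2 holds 52% of Ccl3, 69.3% of Ccl4, 81.2% of Cxcl3 and 91.1% of Chi3l3.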

How the data were processed

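RNA from 6 pools of whole retina (3 ONC, 3 sham) was prepared with the unstranded Illumina TruSeq protocol and sequenced in pairs. Mapping by the authors used CLC Genomics Workbench 6.0.1 with up to 2 mismatches, and they deposited for each library raw counts of reads per gene on exons, introns and junctions. They also deposited RPKM values, which divide exon reads by exon length and by all reads on genes. The sources name mm9, but the positions of 7 of the 9 genes are identical to those of RefSeq GRCm38.p6 and none overlaps its NCBIM37 position. Columns holding the authors' group means were not used. Sequence reads were not analysed here.

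Total exon reads were tested with edgeR 4.0.16 (TMM, glmQLFit and glmQLFTest, R 4.3.3) over 13670 genes (mean RPKM over 0.3 in either group), with Benjamini-Hochberg adjustment over all of them. The common biological coefficient of variation was 9.17%. The procedure was tested on simulated data. Standard errors are the log2 fold change divided by the square root of F. Counting intervals are exact and, like the limit of 3 reads for a zero count, cover counting error only. Between replicates, chi-square per degree of freedom was 4.54 to 13.7, so no pair of libraries of the same group was alike within sampling noise. Nothing in the labels pairs the replicate numbers of both groups, and the correlations of their deviations were -0.047, -0.033 and 0.003. P-values measure the spread between pools.

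Named were the 9 genes, the receptors of these ligands, the called and the 3 most abundant of the other ligands and receptors, Adam10, Adam17 and the called regulators. Any other gene named was chosen after its values were seen or is a marker. A few genes of the lists and a sequence are not reported here and were left out of the counts and sums. The genes and lists were chosen with earlier results of these data known. Alternatives were DESeq2 size factors, the sum of exon reads or all gene reads as divisor, DESeq2 1.42.0, limma 3.58.1 on log2(RPKM + 0.1) and log2(RPKM + 1), no filter, a mean RPKM above 1, filterByExpr, unique exon reads, total gene reads, a replicate block and leaving out each library. Leaving out ligands with under 90% unique reads was added after seeing the data. Python 3.11.15 and matplotlib 3.10.9 were used for summaries and figures.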

Additional observations from a re-analysis of the deposited data

How the results depend on the processing

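The directions of Cx3cl1, Cxcl12, Cxcl16, Ccl3, Ccl4 and Cxcr4 were kept in every alternative in which each was tested (15 to 18 of 18). Of the 9 genes, 1 (Cx3cl1) was called lower without ONC replicate 1, so the count ranged from 0 to 1 when single libraries were left out, and in no other fit was any called. The count of other ligands called higher was 1 (Cxcl2) with all reads on genes as divisor and 1 (Cxcl2) without a filter, and it ranged from 0 to 3 over fits without a single library. The count of 3 came without ONC replicate 1. Of all genes in these fits, 12.7% were called with all reads on genes as divisor and 6.66% without a filter. Without ONC replicate 1 it was 15%, against 6.09% in the main fit. The count of other receptors called higher was 1 (Cx3cr1) with all reads on genes as divisor, and the count called lower was 0 with the sum of exon reads, both limma fits, a mean RPKM above 1 (where Ccr9 was not tested), filterByExpr and the replicate block, and 0 to 1 without a single library. With the block, in which same-numbered libraries shared only a number, 728 of all tested genes were called, against 833 without it. The latter count was lowest, at 373, when sham replicate 2 was left out and highest, at 2049, without ONC replicate 1, and was 435 without ONC replicate 2, 397 without sham replicate 3 and 454 without ONC replicate 3, and was 1730 with all reads on genes as divisor. The RPKM divisor moved the median log2 fold change of all genes from 0.01 to 0.13. All reads on genes numbered 22989819 to 24475929 in sham and 24886685 to 25940790 in ONC. Exon reads were a larger part of these in each ONC library than in each sham library. Dividing by all reads on genes therefore raised the level in ONC over sham for all genes alike. The log2 fold change of Ccl12 turned to 0.08 with all reads on genes as divisor, 0.35 and 0.06 in limma with pseudocounts of 0.1 and 1, 0.02 with total gene reads and 0.09 with the block, and ran from -0.52 to 0.53 without single libraries. Ccl25 turned to -0.25 and Adam17 to -0.03 with total gene reads, and Adam10 to 0.07 with all reads on genes as divisor and 0.06 in both limma fits. Without single libraries Adam10 ran from -0.18 to 0.01 and Adam17 from -0.02 to 0.31. The difference in exon share, ONC minus sham, ran with single libraries left out from -0.78 to 0.46 points for Cxcl12, -0.39 to 4.26 for Cxcl16 and -0.15 to 0.63 for Cx3cl1. Why the exon part differed between the groups, and the cause of the other shifts, were not tested. Depth limits Ccl2, Ccl4, Ccl12 and Cxcl10 most, followed by Ccl3 and Cxcr4.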

Other observations

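ONC replicate 2 held most of the reads of several genes that are no part of the set, all chosen after their values were seen. Of all tested genes, 7 had at least 10 reads in this library and at least 3 times the normalized value of every other library. These were Ccl3, Ccl4, Cxcl3, Ccl24, Arg1, Chi3l3 and Amy2a1. All of them except Arg1 passed the RPKM filter only through ONC replicate 2, so the count of 7 carries no weight. In the other libraries the corresponding number was 1 and 2 in sham replicates 1 and 2, 5 in ONC replicate 1, and 0 in sham replicate 3 and ONC replicate 3.

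Among these 7 genes, Chi3l3, a chitinase-like protein of activated macrophages, had 203 of its 209 ONC reads in ONC replicate 2, 20.1 times the normalized value of the next library. Cxcl3 had 60 of 61 and Ccl24, an eosinophil attractant, had 30 of 30. Arg1, a marker of alternatively activated macrophages, had 100 of 132. Amy2a1 had 22 of 31, but only 4.76% of its exon reads were uniquely mapped. The cytokine gene Il1b had 85 of its 101 ONC reads there, although sham replicate 1 held 34. The reads of Cx3cl1, Cxcl12 and Cxcl16 in ONC replicate 2 were 31.2%, 35.1% and 30.9% of those in the ONC group.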
